A study of Mus musculus with 9 samples.

Results

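The proteasome genes described here are the protein-coding genes of the count table whose names match the proteasome series Psma, Psmb, Psmc, Psmd, Psme, Psmf and Psmg followed by a number. The rule found 49 of 55401 genes, and 48 of them were among the 16762 genes with enough counts to be tested. The gene left out of the test was Psmb11. The study sequenced poly(A)-selected RNA from primary neonatal mouse ventricular myocytes, heart muscle cells isolated from C57BL/6J pups at 1 day of age, all labelled WT. Control cultures were kept in normoxia in complete medium, DMEM with 10% fetal bovine serum (FBS). Hypoxia cultures were moved to DMEM lacking both glucose and serum and held for 6 h in a sealed AnaeroPack-MIC chamber. Hypoxia + rSRGN cultures were handled alike, with recombinant serglycin (rSRGN) in the medium at a dose the labels do not give. Each group had 3 libraries. Control thus differs from both other groups in oxygen, glucose and serum together, and their parts cannot be told apart.

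The proteasome is the large protease that degrades ubiquitin-tagged proteins. Its core, the 20S particle, is a barrel of outer rings of alpha subunits and inner rings of beta subunits, some of which carry the proteolytic sites. The 19S cap binds ubiquitin chains, removes them and unfolds the substrate with a ring of ATPases, whereas other caps, the activators, open the core without ubiquitin. Heart muscle relies on it to turn over sarcomere and membrane proteins, and inflammatory signals can replace the standard catalytic subunits by induced ones.

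Library totals were 21669017 to 22781557 counted fragments in control, 16583985 to 18148474 in hypoxia and 16640239 to 20826701 in hypoxia + rSRGN. Levels below are counts per 1000000 fragments (CPM) after TMM scaling of library size. Cardiomyocyte markers summed to 42266 to 52020.0 CPM in control, 3709 to 5718 in hypoxia and 7285 to 7822 in hypoxia + rSRGN, and 10 of 10 fell in hypoxia. Fibroblast markers summed to 8828 to 10409 CPM in control and 17353 to 20153 in hypoxia, with 6 of 9 called higher. In bulk RNA, fewer cells of a type and less RNA per cell cannot be told apart, and the part of these shifts in the results below was not tested. Hypoxia replicate 2 stood apart from the other hypoxia libraries. It was the library farthest from the other members of its group for 31 of the 48 tested genes, the highest of the 3 hypoxia libraries for 26 and the lowest for 14, beside 39.2% and 34.4% of all tested genes, so a number of the results below are also given without it.

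Proteasome genes took 0.440% to 0.450% of all fragments in control, 0.489% to 0.509% in hypoxia and 0.438% to 0.454% in hypoxia + rSRGN. The hypoxia range lay above both others, and the other ranges overlapped. Both of the following thresholds are used with edgeR's quasi-likelihood test. A gene was called when its Benjamini-Hochberg adjusted p was below 0.05 and it changed by at least 1.5-fold, and smaller changes are given where the adjusted p alone was below 0.05. The labels do not say whether replicates came from separate cultures, so p-values measure the spread between these libraries, which may be technical.

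In hypoxia against control, large changes were few among these genes. Of 48 tested, 4 were called higher (Psmd8, Psmd4, Psmg3 and Psmb9) and 3 lower (Psme4, Psmb10 and Psme1), where 51.6% of all tested genes were called, 26.4% higher and 25.1% lower. By adjusted p alone, 21 rose, 10 fell and 17 did not pass, beside 70.9% of all genes passing, 36.8% higher and 34.1% lower. Over the 48 genes, the log2 fold change had a median of 0.21, against 0.05 over all tested genes. Groups did not overlap for 24 genes that were higher and 10 that were lower in hypoxia, beside 73% of all genes, 37.7% higher and 35.3% lower. The median differed when a trend with gene length was removed. Shorter genes were higher in hypoxia across the table (Spearman rho -0.23 between log2 fold change and exon length over 16762 genes in these libraries), while rho was -0.07 over the 48 proteasome genes. With the trend of all genes removed from each library, the median of the proteasome genes was -0.03, and 13 rose and 15 fell in place of 21 and 10. The genes that then no longer passed were Psma1, Psma5, Psma6, Psmb2, Psmb4, Psmc2, Psmc4, Psmc6, Psmd7 and Psmg1, and 7 others then passed, Psmd5 as a rise and Psmb3, Psmb7, Psmc1, Psmc5, Psmd6 and Psme2 as falls. Without control replicate 2 the median was 0.13, and without hypoxia replicate 2 it was 0.15. Genes are not independent replicates, and the correlation is a description.

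**Figure D1:**
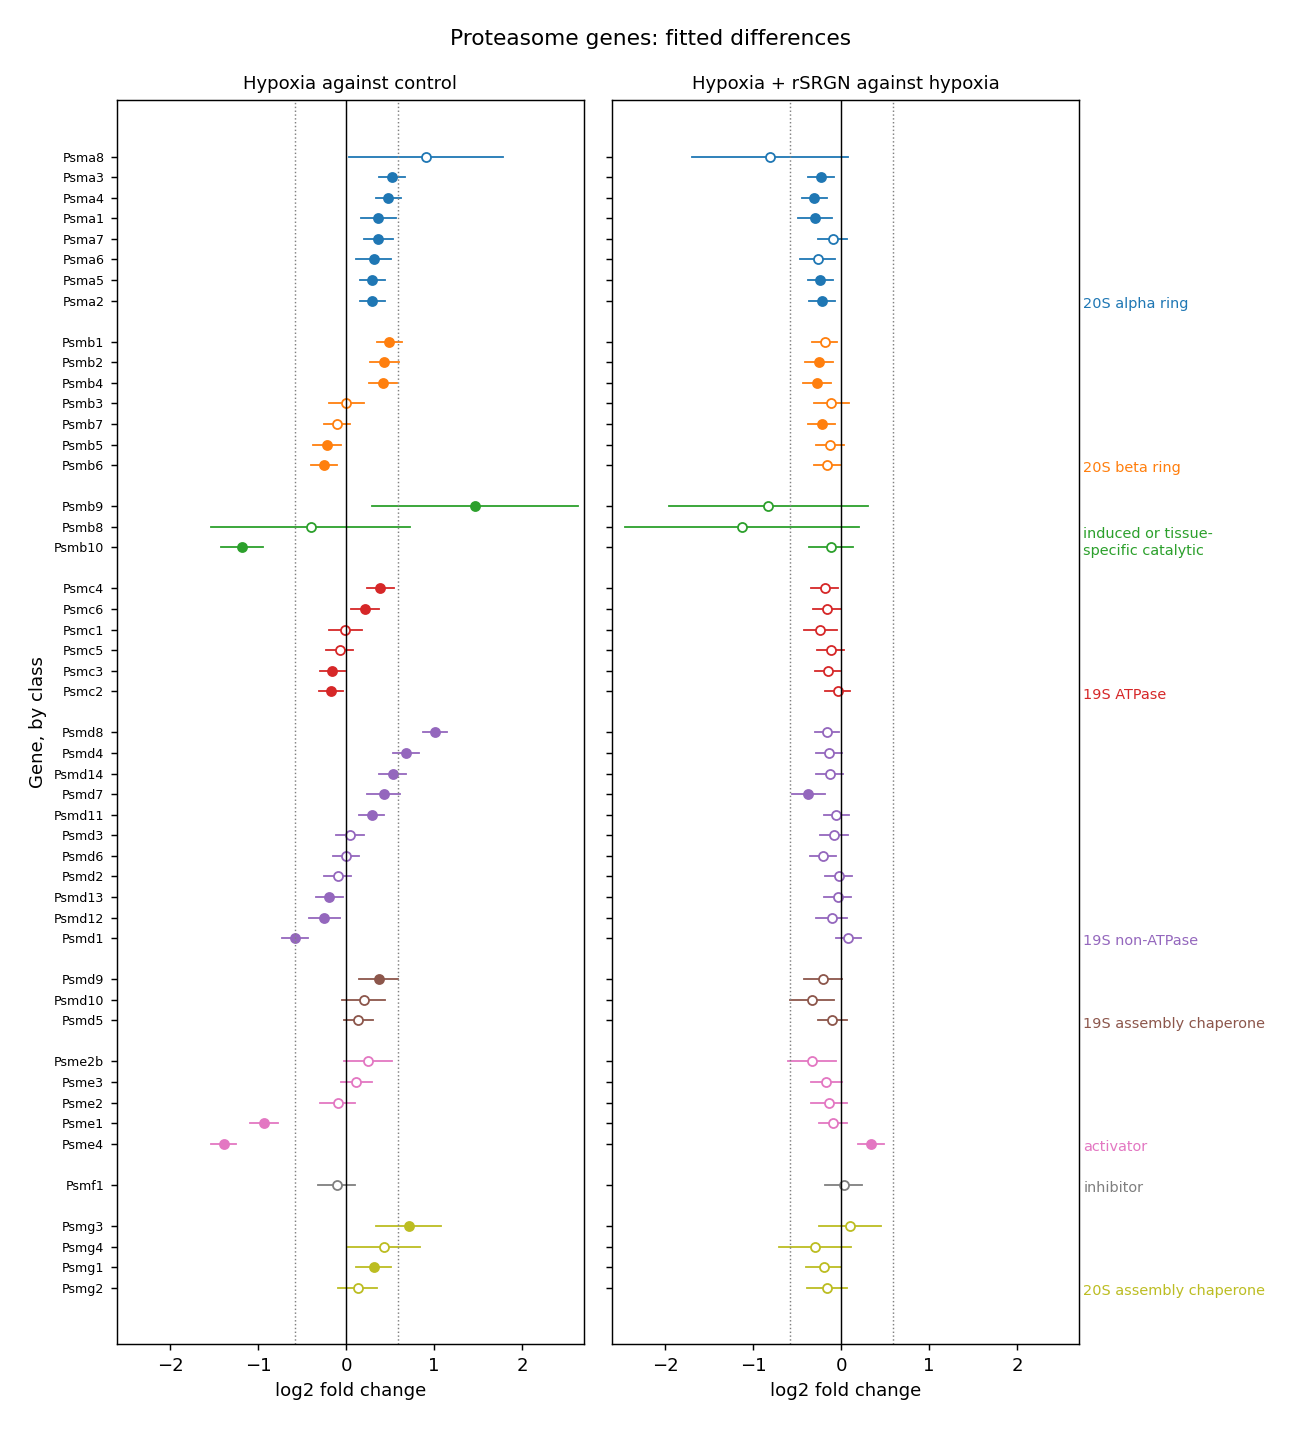
Log2 fold changes (x axis) of the 48 tested proteasome genes (y axis, coloured by class) in hypoxia against control (left) and hypoxia + rSRGN against hypoxia (right). Bars are 95% confidence intervals, filled points have an adjusted p below 0.05 and dotted lines mark 1.5-fold; the alpha ring lies right of 0 on the left panel, the beta ring falls on both sides, and 44 of the 48 genes lie left of 0 on the right panel.

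The alpha ring forms the outer gate of the core. All 8 alpha genes were above 0 in hypoxia, as were 8750 of the 16762 tested genes, and the 7 that are not tissue-specific (Psma1 to Psma7) each rose by adjusted p, beside 36.8% of all genes, with log2 fold changes from 0.29 (Psma2) to 0.52 (Psma3). The change stayed under 1.5-fold in each of them. Psma3 had 101.9, 89.8 and 96.2 CPM in the control libraries and 135.7, 135.7 and 140.3 CPM in the hypoxia libraries. Psma4 had 100.1, 92.8 and 93.6 CPM in control and 134, 132 and 133 CPM in hypoxia. Groups did not overlap for either gene, and the log2 fold changes were 0.52 ± 0.07 (SE) and 0.48 ± 0.07 (edgeR, adjusted p = 1.15e-06 and 1.90e-06). Psma6 rested on hypoxia replicate 2, with 122, 166 and 124 CPM in the hypoxia libraries against 107 to 117 CPM in control, and its adjusted p was 0.056 without that library. Psma1 had 108, 146 and 107 CPM in the hypoxia libraries, and its log2 fold change of 0.37 was 0.20 without hypoxia replicate 2. With the length trend removed, Psma5 and Psma6 turned to -0.034 and -0.031 and Psma1 was at 0.19, none of them passing, while the other 4 passed at 0.20 to 0.45.

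Psma8, the testis form of an alpha subunit, was scarce. It had 41 fragments over the control libraries, 63 over hypoxia and 38 over hypoxia + rSRGN. Its ratio of hypoxia to control was 1.88, with an exact 95% interval of 1.25 to 2.86 that covers counting error only, and its adjusted p in edgeR was 0.0588.

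The beta ring held rises and falls. Psmb1, Psmb2 and Psmb4, which have no proteolytic site of their own, rose by 0.49, 0.43 and 0.42 on the log2 scale (edgeR, adjusted p = 1.22e-06, 4.95e-05 and 5.76e-05). Psmb5 and Psmb6, which carry the chymotrypsin-like and caspase-like sites, fell by 0.22 and 0.25 (adjusted p = 0.0154 and 0.00272). Psmb5 did not pass without control replicate 2 (adjusted p = 0.0609) or hypoxia replicate 3 (adjusted p = 0.052), while Psmb6 passed with each library left out. Psmb7, with the trypsin-like site, had a log2 fold change of -0.10 (adjusted p = 0.208), and the structural subunit Psmb3 had 0.00 (adjusted p = 0.982), or 0.13 without hypoxia replicate 2.

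The levels in each library showed the same division. Psmb6 had 109.3, 110.4 and 116 CPM in control and 92.9, 94.7 and 94.3 CPM in hypoxia, and 80.4, 88.2 and 83.9 CPM in hypoxia + rSRGN. Psmb5 had 85.9, 96.7 and 87.8 CPM in control and 83.6, 74.3 and 74.9 CPM in hypoxia, and 70.4, 73.9 and 69.0 CPM in hypoxia + rSRGN. Each hypoxia library lay below the control range of both genes. By contrast Psmb4 had 140.0, 142 and 138 CPM in control and 182, 209.7 and 169.6 CPM in hypoxia, and Psmb1 had 121 to 125 CPM in control and 167 to 180.0 in hypoxia. Psmb7 had 117, 111 and 118 CPM in control, 107, 115 and 101 CPM in hypoxia and 87.3, 95.8 and 94.3 CPM in hypoxia + rSRGN. Hypoxia overlapped control, the log2 fold change was -0.16 without hypoxia replicate 2 (adjusted p = 0.0508), and the gene shares 11.8% of its exon bases with Nek6 on the opposite strand.

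A share within the beta ring does not depend on the scaling of libraries. Psmb5, Psmb6 and Psmb7 together made up 43.6%, 43.4% and 43.3% of the fragments of the 7 standard beta genes in control and 34.8%, 34.2% and 34.1% in hypoxia. The mean share was 43.4% ± 0.140 (SD, n = 3) in control and 34.3% ± 0.394 in hypoxia, a difference of -9.06 percentage points that is many times the spread between libraries. An exact two-sided permutation test gave p = 0.1, the smallest value that 3 against 3 libraries allow. This share was chosen after the values of the genes had been seen. In hypoxia + rSRGN it was 35.0% ± 0.726, which differed from hypoxia by 0.667 points (exact permutation p = 0.3). With the length trend removed, Psmb5 and Psmb6 fell further, to log2 fold changes of -0.67 and -0.54, Psmb1 kept 0.50, Psmb2 (0.08) and Psmb4 (0.13) no longer passed, and Psmb7 (-0.22, adjusted p = 0.00951) and Psmb3 (-0.27, adjusted p = 0.0172) passed as falls. For Psmb5, 54.1% of the 50-base words in its annotated transcripts also occur in other genes, mostly the gene model Gm3375, so its counts hold only part of its fragments or some of a copy's. For Psmb6 this was 1.05%. It was 24.9% for Psmd9, 17.8% for Psmb3, 17.8% for Psmd2, 14.1% for Psmc1 and 11.9% for Psmb8.

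**Figure D2:**
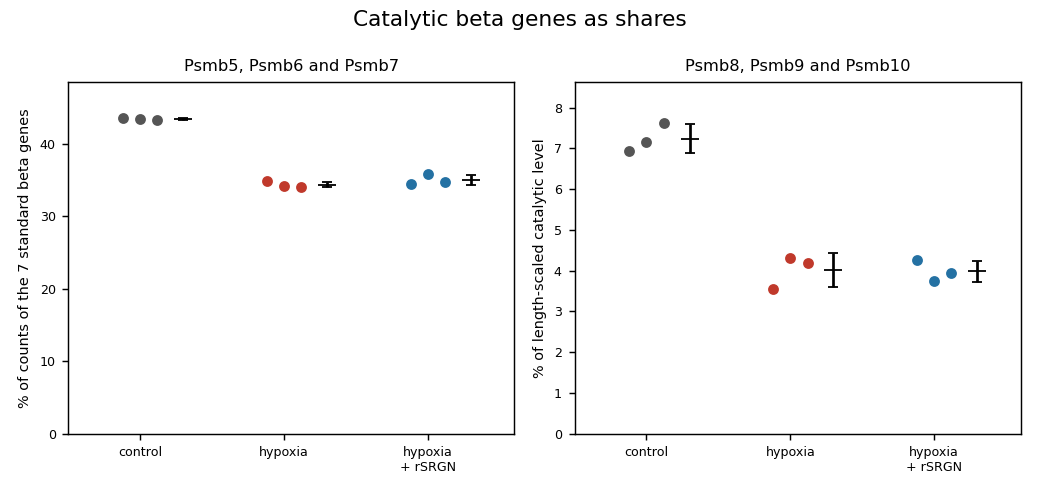
Share of the standard catalytic genes Psmb5, Psmb6 and Psmb7 in the fragments of the 7 standard beta genes (left, %) and share of the induced genes Psmb8, Psmb9 and Psmb10 in the length-scaled level of all 6 catalytic genes (right, %), by group. Points are libraries and bars the mean ± SD of 3; both shares are lower in hypoxia and hypoxia + rSRGN than in control, from 43.4% to 34.3% and 35.0% on the left and from 7.24% to 4.01% and 3.99% on the right.

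The sequences upstream of these genes were searched for 3 motifs on both strands, within 250 bases before the RefSeq start (GRCm38.p6), which was at hand for 41 of the 49 genes. TGACNNNGC, the core of the antioxidant response element that NRF1 and NRF2 bind, was found in 5 of the 41 (12.2%: Psmb5, Psmb6, Psmc6, Psmd9 and Psmd12), against 11.5% of 27025 genes. GAANNTTC, a heat shock element, was found in 3 (7.32%, against 7.73%), and CCAAT, the NF-Y box, in 14 (34.1%, against 37.5%). Each share lay close to that of all genes. The windows of Psmb5 (chr14:54617996-54618245, minus strand) and Psmb6 (chr11:70525107-70525356, plus strand) are shown because these catalytic genes fell together and both hold TGACNNNGC. Those of Psmd8 (chr7:29180674-29180923, minus strand) and Psme4 (chr11:30771525-30771774, plus strand) are shown because these genes had the largest rise and fall among the well-counted members. Capitals mark a match to TGACNNNGC or, at the start of the Psmb5 window, to GAANNTTC; a window without capitals holds none of the 3 motifs. A match is a description of the letters and not a sign of binding.
Psmb5: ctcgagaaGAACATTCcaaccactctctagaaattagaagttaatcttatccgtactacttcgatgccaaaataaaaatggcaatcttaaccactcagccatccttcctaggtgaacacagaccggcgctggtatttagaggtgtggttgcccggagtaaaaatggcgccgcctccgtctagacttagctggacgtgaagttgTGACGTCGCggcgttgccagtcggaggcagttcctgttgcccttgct
Psmb6: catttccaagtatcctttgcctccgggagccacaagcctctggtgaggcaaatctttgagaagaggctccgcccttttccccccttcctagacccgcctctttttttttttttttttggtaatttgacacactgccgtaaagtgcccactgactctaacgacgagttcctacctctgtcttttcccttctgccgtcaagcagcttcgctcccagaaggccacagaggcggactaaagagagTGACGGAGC
Psmd8: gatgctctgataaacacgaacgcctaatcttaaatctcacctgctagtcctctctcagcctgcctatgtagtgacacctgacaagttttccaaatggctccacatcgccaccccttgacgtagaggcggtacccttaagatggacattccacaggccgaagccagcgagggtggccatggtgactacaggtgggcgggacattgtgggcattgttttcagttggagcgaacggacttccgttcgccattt
Psme4: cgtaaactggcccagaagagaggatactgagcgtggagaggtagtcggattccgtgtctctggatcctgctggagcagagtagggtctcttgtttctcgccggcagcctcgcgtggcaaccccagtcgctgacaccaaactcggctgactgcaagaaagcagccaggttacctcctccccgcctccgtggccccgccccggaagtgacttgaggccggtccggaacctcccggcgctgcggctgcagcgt
The TGACNNNGC match begins at position -47 from the start in Psmb5 and at -9 in Psmb6, where it ends on the last base before the start.

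Of the induced and tissue-specific catalytic genes, Psmb10 was the only one above 2 CPM in any library. Psmb10, which replaces Psmb7 in the immunoproteasome, had 23.3, 25.5 and 26.8 CPM in control, 9.99, 12.5 and 10.8 CPM in hypoxia and 10.5, 10.2 and 10.0 CPM in hypoxia + rSRGN. Control lay above both other groups without overlap. It fell 2.27-fold in hypoxia (log2 fold change -1.18 ± 0.11, edgeR, adjusted p = 4.54e-09), and hypoxia + rSRGN differed from hypoxia by -0.12 (95% interval -0.37 to 0.13, adjusted p = 0.567).

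The other induced genes rested on few fragments. Psmb8, which replaces Psmb5, had 55, 34 and 16 fragments over the libraries of control, hypoxia and hypoxia + rSRGN, or 0.989, 0.723 and 0.821 CPM in control, 0.752, 0.231 and 0.927 CPM in hypoxia and 0.596, 0.145 and 0.158 CPM in hypoxia + rSRGN. In edgeR it was called lower in hypoxia + rSRGN against control (log2 fold change -1.53, adjusted p = 0.0285) and not in hypoxia against control (-0.40, adjusted p = 0.517). The first of these calls was lost without control replicate 1, control replicate 3, hypoxia + rSRGN replicate 2 or hypoxia + rSRGN replicate 3, and the gene was not tested with at least 10 counts required in every library. Without hypoxia replicate 2, hypoxia against control was at -0.013. Psmb9, which replaces Psmb6, had 26, 59 and 35 fragments, and its hypoxia libraries had 1.07, 0.347 and 1.91 CPM, against 0.270, 0.632 and 0.290 in control and 0.655, 0.482 and 0.739 in hypoxia + rSRGN. The ranges of control and hypoxia overlapped, since hypoxia replicate 2 lay within the control range, and the call (log2 fold change 1.46 ± 0.56, edgeR, adjusted p = 0.0238) was lost without control replicate 1 (adjusted p = 0.0997), control replicate 3 (0.087) or hypoxia replicate 3 (0.251). Psmb9 also shares 212 of its exon bases (5.79%) with Tap1 on the opposite strand, and fragments in that stretch could not be assigned by strand.

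Psmb11, the catalytic subunit known from the cortical thymus, had 0, 1 and 0 fragments in the control libraries, 8 to 10 in the hypoxia libraries and 5 to 11 in the hypoxia + rSRGN libraries. The ratio of hypoxia to control was 33.0, with an exact 95% interval of 5.45 to 1353 for counting error. In edgeR it was called higher in hypoxia with a filter of at least 1 count, and without hypoxia replicate 1 or 2 or hypoxia + rSRGN replicate 1 or 3. The main fit did not test it. With so few control fragments it passes a count filter only through the groups where it is high, so these calls carry no separate support. Per kilobase of annotated exon, Psmb8, Psmb9 and Psmb10 made up 7.24% ± 0.353 (SD, n = 3) of the level of all 6 catalytic genes in control, 4.01% ± 0.416 in hypoxia and 3.99% ± 0.258 in hypoxia + rSRGN. Hypoxia differed from control by -3.23 percentage points, with an exact permutation p of 0.1, the smallest possible, and hypoxia + rSRGN differed from hypoxia by -0.0240 points (exact permutation p = 0.9). The share was mostly that of Psmb10, which had 14.8 CPM per kilobase in control against 0.250 for Psmb8 and 0.109 for Psmb9.

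Genes that load peptides cut by the proteasome on MHC class I were listed beside the induced subunits. Of the 10 genes listed, 6 were called higher in hypoxia and none lower, beside 26.4% and 25.1% of all genes, and the median was 0.71 on the log2 scale. B2m, the class I light chain, rose by 1.98 ± 0.08 and Nlrc5, the activator of class I genes, by 1.49 ± 0.38 (edgeR, adjusted p = 8.44e-16 and 0.00137). Erap1, which trims peptides, fell by 0.51 without reaching 1.5-fold. Of 12 macrophage markers tested, 10 fell and 1 (Cx3cr1) rose in hypoxia. The listed markers summed to 236 to 253 CPM in control, 109 to 165 in hypoxia and 138 to 159 in hypoxia + rSRGN. Their median log2 fold change in hypoxia was -3.71, against 8.65 for Cx3cr1, so the sum does not show the typical fall. Of 6 lymphocyte markers, 3 were at 0 in each control library and the sum was below 0.5 CPM in control and below 1.5 CPM in hypoxia. The part of these cells in the fall of Psmb10 was not tested.

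The 19S ATPases changed little. Psmc4 and Psmc6 rose by 0.39 and 0.21, Psmc2 and Psmc3 fell by 0.17 and 0.15, and Psmc1 and Psmc5 did not pass (edgeR, adjusted p from 7.28e-05 for Psmc4 to 0.949 for Psmc1). Their summed level was 890.2 to 917 CPM in control and 883 to 969 in hypoxia, with overlap. With the length trend removed, Psmc4 (0.11, adjusted p = 0.184), Psmc6 (0.11) and Psmc2 (-0.12) no longer passed, Psmc1 (-0.29) and Psmc5 (-0.39) passed as falls, and Psmc3 was at -0.38. Without hypoxia replicate 2, Psmc1 was at -0.15 and Psmc5 at -0.13, and neither passed. Psmc6 did not pass without hypoxia replicate 2 (edgeR, adjusted p = 0.0705), control replicate 2 (0.21) or control replicate 3 (0.0511), and Psmc2 did not without control replicate 3 (0.0518) or hypoxia replicate 3 (0.0784). Psmc3 passed without control replicate 1, hypoxia replicate 2 or hypoxia + rSRGN replicate 3 and did not without any other single library (0.0588 to 0.151). Psmc3 shares 8.25% of its exon bases with Slc39a13 on the opposite strand.

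Among the 11 non-ATPase subunits of the cap, 5 rose, 3 fell and 3 did not pass, a share of passing genes near the 70.9% of all tested genes. Psmd8, a lid subunit needed for joining the lid to the base, had the largest rise of the well-counted members. It had 167, 165 and 158 CPM in control, 322, 337 and 327 CPM in hypoxia and 296, 294 and 293 CPM in hypoxia + rSRGN. The 3 groups did not overlap. It rose 2.01-fold in hypoxia (log2 fold change 1.01 ± 0.07, edgeR, adjusted p = 6.87e-12) and kept its call under each alternative run.

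Psmd4, a ubiquitin receptor of the cap, had 103.9, 116 and 112 CPM in control, 173, 187 and 171 CPM in hypoxia and 157, 155 and 170.3 CPM in hypoxia + rSRGN. It rose 1.60-fold (log2 fold change 0.68 ± 0.07, adjusted p = 2.49e-08), and fell short of 1.5-fold with the length trend removed (0.48). Psmd14, the deubiquitinase that strips chains from substrates, and its partner in the lid Psmd7 rose by 0.53 and 0.43, and Psmd11 by 0.29. Psmd7 leaned on hypoxia replicate 2, with 140.0, 187 and 143 CPM in the hypoxia libraries, and its log2 fold change was 0.28 without it. With the length trend removed it was 0.15 and no longer passed (adjusted p = 0.137), and Psmd14 was at 0.33.

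Psmd1, the scaffold of the cap that docks the ubiquitin receptor Adrm1, fell. It had 214, 206 and 219 CPM in control, 150.2, 138 and 139 CPM in hypoxia and 148, 159 and 145 CPM in hypoxia + rSRGN. Its log2 fold change of -0.58 ± 0.07 in hypoxia (edgeR, adjusted p = 1.48e-07) lay just short of 1.5-fold. It was called with DESeq2, RLE factors, a filter of at least 1 count or only the groups compared. The same held without control replicate 1 or 2, hypoxia replicate 1 or hypoxia + rSRGN replicate 3. With the length trend removed Psmd1 was at -0.41. The lid subunits Psmd12 and Psmd13 fell by 0.25 and 0.19 (adjusted p = 0.0127 and 0.0254), and were at -0.47 and -0.31 with the length trend removed. Psmd12 did not pass without control replicate 1 (edgeR, adjusted p = 0.062) or hypoxia replicate 1 (0.0847). Psmd13 did not pass without hypoxia replicate 2 (0.0663), control replicate 1 (0.0582) or control replicate 3 (0.0698), and it shares 10.1% of its exon bases with Sirt3 on the opposite strand, which itself fell from 1656 to 521 fragments over the group. The scaffold Psmd2, with 346 to 356 CPM in control and 309 to 365 in hypoxia, did not pass (log2 fold change -0.09), but passed without hypoxia replicate 2 (-0.18, adjusted p = 0.0147).

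The core genes, 14 standard alpha and beta genes, were 0.570 to 0.576 of the summed CPM of the 17 cap genes in control, 0.616 to 0.641 in hypoxia and 0.583 to 0.596 in hypoxia + rSRGN. The 3 ranges did not overlap. This ratio too was chosen after the values were seen. It was not computed with the length trend removed, which changed the values of both core and cap genes.

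**Figure D3:**
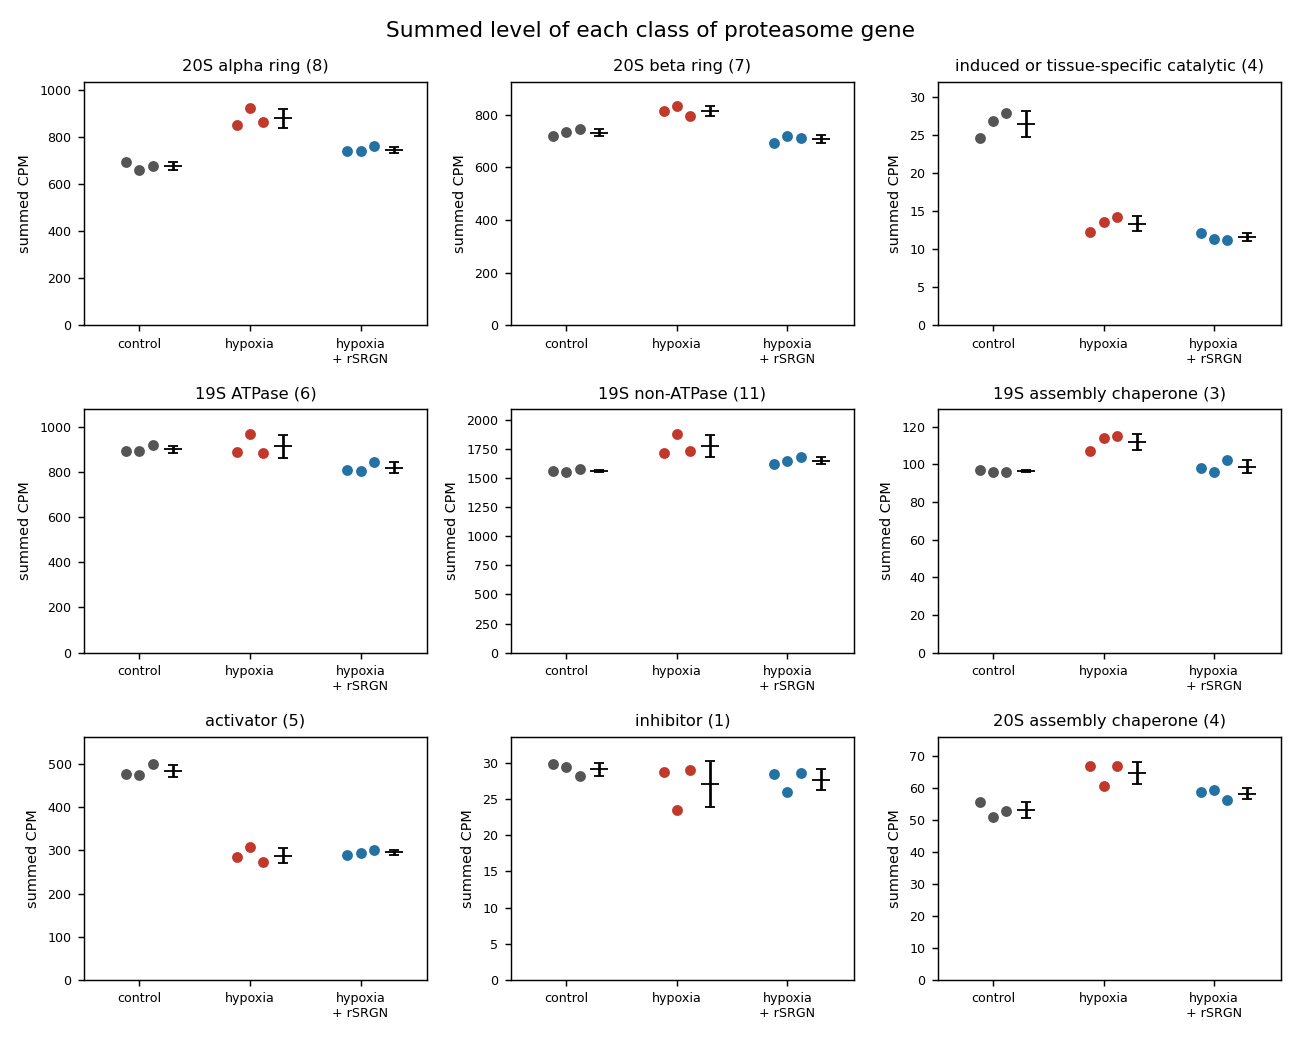
Summed level (CPM) of each class of proteasome gene, with the number of genes in brackets, in control, hypoxia and hypoxia + rSRGN. Points are libraries and bars the mean ± SD of 3; the alpha ring rises from 663 to 695 CPM in control to 854 to 927 in hypoxia and the activators drop from 474 to 501 CPM to 272 to 308, while the ATPases overlap.

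Of the 5 activator genes, 2 were called lower, beside 25.1% of all genes. Psme4, the single-chain cap PA200 that is linked to the degradation of acetylated histones, had 259.7, 254 and 279.8 CPM in control, 102.8, 103.2 and 96.6 CPM in hypoxia and 125, 132 and 126 CPM in hypoxia + rSRGN. The 3 groups did not overlap. It fell 2.62-fold in hypoxia (log2 fold change -1.39 ± 0.07, edgeR, adjusted p = 7.26e-14), and it stood 0.34 ± 0.07 higher on the log2 scale in hypoxia + rSRGN than in hypoxia (adjusted p = 0.00211). Cardiomyocyte markers moved in the same directions, with 9 of 10 called higher in hypoxia + rSRGN against hypoxia, and their part in the change of Psme4 was not tested.

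Psme1 and Psme2 encode the alpha and beta chains of PA28, which form 1 mixed ring, and lie close together on chromosome 14. Psme1 had 81.3, 82.8 and 85.1 CPM in control, 45.4, 41.7 and 43.8 CPM in hypoxia and 42.9, 41.2 and 38.6 CPM in hypoxia + rSRGN. It fell 1.90-fold in hypoxia (log2 fold change -0.93 ± 0.08, edgeR, adjusted p = 3.43e-10). Psme2 had 36.4, 41.5 and 40.1 CPM in control and 36.3, 40.3 and 33.9 CPM in hypoxia, with overlap, and 31.9, 31.7 and 36.8 CPM in hypoxia + rSRGN. Its log2 fold change in hypoxia was -0.09 (adjusted p = 0.384), or -0.17 without hypoxia replicate 2, and it passed with the length trend removed (-0.39, adjusted p = 0.00109). The difference between the chains was not tested. The gene Psme2b is a copy of Psme2 that shares 68.7% of its 50-base words with it, so fragments of the pair could be misassigned. Psme2b had 13.6, 13.9 and 13.2 CPM in control, 16.01, 18.1 and 14.1 CPM in hypoxia and 13.2, 10.4 and 14.8 CPM in hypoxia + rSRGN, with a log2 fold change of 0.24 in hypoxia (adjusted p = 0.102). This was -0.23 with the length trend removed and 0.15 without hypoxia replicate 2, and it passed without hypoxia replicate 3 (0.33, adjusted p = 0.0436). Psme3, the nuclear activator PA28 gamma, had 85.2, 82.4 and 82.7 CPM in control, 83.2, 104 and 84.0 CPM in hypoxia and 77.1, 80.1 and 84.5 CPM in hypoxia + rSRGN. Its log2 fold change in hypoxia was 0.12 (adjusted p = 0.215), and it was 0.00 without hypoxia replicate 2. Psmf1, the inhibitor PI31, had 29.9, 29.4 and 28.2 CPM in control, 28.8, 23.5 and 29.1 CPM in hypoxia and 28.5, 26.1 and 28.6 CPM in hypoxia + rSRGN, and a log2 fold change of -0.11 in hypoxia (adjusted p = 0.353), or -0.014 without hypoxia replicate 2.

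**Figure D4:**
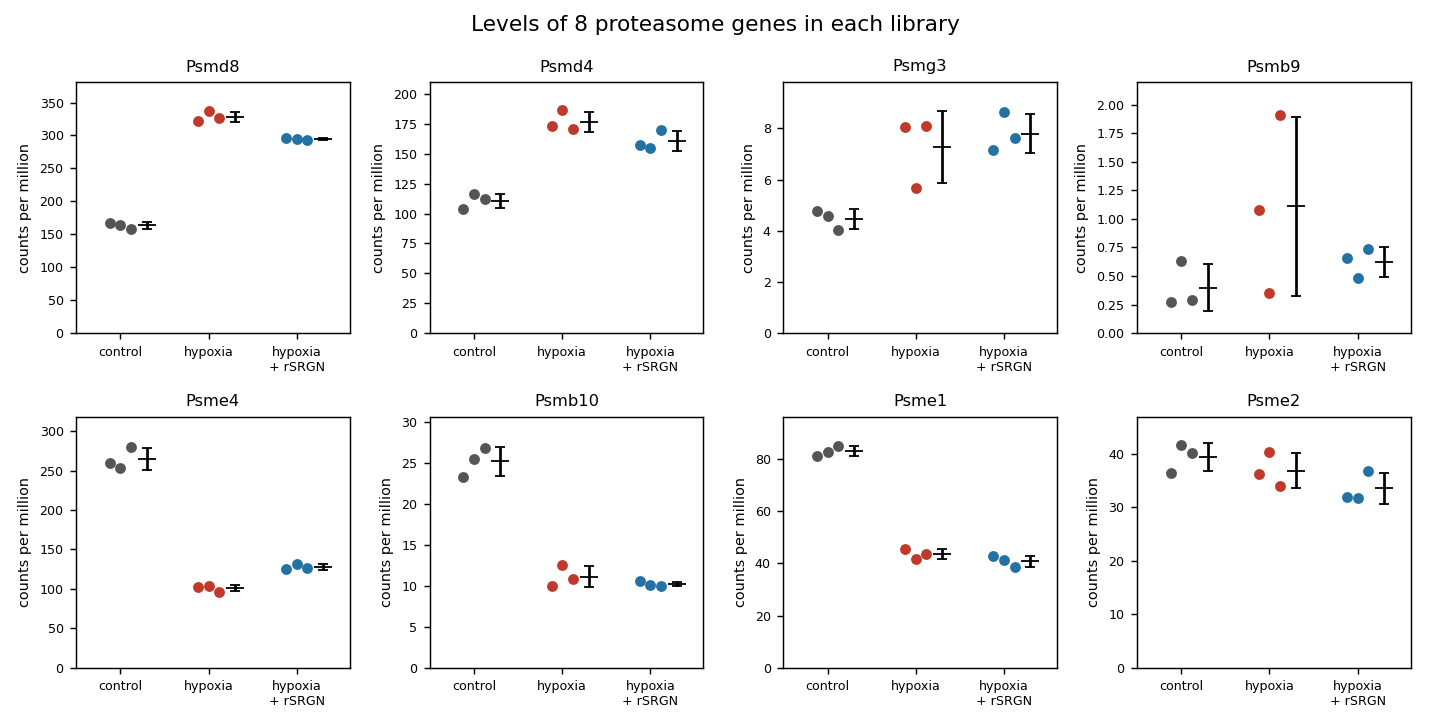
Levels (CPM) of the 7 genes called in hypoxia against control and of Psme2, the partner chain of Psme1, in each library. Points are libraries and bars the mean ± SD of 3; Psmd8 lies at 322 to 337 CPM in hypoxia against 158 to 167 in control, Psme4 at 96.6 to 103.2 against 254 to 279.8, and Psmb9 overlaps between groups.

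Of 4 assembly chaperone genes of the 20S core, 2 rose by adjusted p, and of 3 of the 19S base 1 rose, beside 36.8% of all genes. The others did not pass. The chaperones PAC1 to PAC4, encoded by Psmg1 to Psmg4, assemble the alpha ring. Psmg3 had 4.76, 4.56 and 4.01 CPM in control, 8.06, 5.66 and 8.11 CPM in hypoxia and 7.15, 8.62 and 7.61 CPM in hypoxia + rSRGN. It rose 1.64-fold (log2 fold change 0.71 ± 0.18, edgeR, adjusted p = 0.00124), and the value was 0.52 with the length trend removed. Psmg1 had 20.9, 19.1 and 19.5 CPM in control and 24.1, 25.5 and 24.3 CPM in hypoxia, with 21.0, 22.4 and 21.0 CPM in hypoxia + rSRGN, and rose by 0.31 (adjusted p = 0.00610), though it was at -0.013 with the length trend removed. Psmg2, its partner, had 25.7, 22.7 and 24.4 CPM in control, 28.8, 22.0 and 28.8 CPM in hypoxia and 24.2, 23.9 and 23.2 CPM in hypoxia + rSRGN. Hypoxia overlapped control (log2 fold change 0.13, adjusted p = 0.284), though its adjusted p was 0.0317 without hypoxia replicate 2. Psmg4 had 4.49, 4.61 and 5.07 CPM in control, 5.96, 7.57 and 5.62 CPM in hypoxia and 6.67, 4.48 and 4.49 CPM in hypoxia + rSRGN. Its log2 fold change in hypoxia was 0.43 (adjusted p = 0.0531), and it passed without hypoxia replicate 3 (adjusted p = 0.0377) or hypoxia + rSRGN replicate 1 (0.0409). Without hypoxia replicate 2 it was 0.29 (adjusted p = 0.213), and with the length trend removed -0.18.

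The chaperones of the 19S base were Psmd5, Psmd9 and Psmd10, the last also known as gankyrin. Psmd9 had 22.7, 26.6 and 24.2 CPM in control and 29.0, 31.6 and 34.3 CPM in hypoxia, with 24.4, 27.9 and 30.002 CPM in hypoxia + rSRGN, and rose by 0.37 (adjusted p = 0.00341). Psmd5 had 47.5, 49.7 and 47.7 CPM in control, 52.9, 50.7 and 55.9 CPM in hypoxia and 51.7, 46.1 and 51.2 CPM in hypoxia + rSRGN. Its log2 fold change in hypoxia was 0.14 (adjusted p = 0.128), and it passed with the length trend removed (0.31, adjusted p = 0.00193). Psmd10 had 26.9, 19.6 and 24.3 CPM in control, 24.9, 31.5 and 24.8 CPM in hypoxia and 22.0, 21.7 and 21.1 CPM in hypoxia + rSRGN, with a log2 fold change of 0.20 in hypoxia (adjusted p = 0.139). Without hypoxia replicate 2 the log2 fold change of Psmd10 was 0.075.

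Partner proteins with other names were listed separately. Of 10 partners tested, 4 rose, 3 fell and 3 did not pass by adjusted p, near the 70.9% of all genes that passed, and their median was 0.16 on the log2 scale. Pomp, the maturation factor of the core, rose by 0.56 ± 0.07 and Sem1, the smallest lid subunit, by 0.34 ± 0.07 (edgeR, adjusted p = 2.66e-07 and 0.00014). Txnl1, a redox protein bound to the cap, was called higher (0.70). Ube3c, a ligase that extends chains at the proteasome, and Ecpas, an adaptor that binds the particle, were called lower (-0.94 and -0.77). Ecpas fell short of 1.5-fold with the length trend removed (-0.46). The ubiquitin receptor Adrm1 did not pass (0.07, adjusted p = 0.468, and a log2 fold change of -0.047 without hypoxia replicate 2).

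Nfe2l1 encodes NRF1, the transcription factor that raises proteasome genes when proteolysis is blocked. It fell from 527 ± 21.0 CPM in control to 336 ± 23.6 in hypoxia (SD, n = 3; log2 fold change -0.65 ± 0.07, edgeR, adjusted p = 3.53e-08). A list of 9 genes held those for NRF1, NRF2 and the proteins that extract and process NRF1. By adjusted p, 3 rose and 6 fell, beside 36.8% and 34.1% of all genes. The median was -0.46 beside 0.05. Vcp, which pulls proteins from membranes, was called lower (-0.68), as was Sel1l (-0.78), while its partner ligase Syvn1 was called higher (0.62). Syvn1 fell short of 1.5-fold without control replicate 1 (0.55) or hypoxia replicate 3 (0.57) or with a filter of at least 1 count (0.56), as Nfe2l1 did with library size alone (-0.58) or the length trend removed (-0.57) and Sel1l with the length trend removed (-0.56). Nfe2l2, the gene of that list that encodes NRF2, rose by 0.45.

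Genes that supply and carry ubiquitin were a further list. Of 14 genes for ubiquitin, its activating enzymes and its shuttle receptors, 5 were called higher and none lower, beside 26.4% and 25.1% of all genes, and the median was 0.27 on the log2 scale. The precursors Ubb and Rps27a rose by 1.11 and 1.27. By adjusted p alone, 7 rose and 4 fell, beside 36.8% and 34.1% of all genes. The falls were those of Uba1, Uba6, Zfand5 and Ubqln4, by 0.37, 0.25, 0.39 and 0.50. Zfand5 was at -0.092 (adjusted p = 0.293) with the length trend removed. Ubiquitin and ribosomal precursors have many processed copies in the genome, so these counts are uncertain.

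In hypoxia + rSRGN against hypoxia, most proteasome genes stood slightly lower with rSRGN, and none was called. Of 48 tested, 0 were called by edgeR and 0 by DESeq2, beside 3.13% of all tested genes (2.27% higher and 0.859% lower), and 0 had an unadjusted p below 0.05 together with 1.5-fold. By adjusted p alone, 9 fell (Psma1 to Psma5, Psmb2, Psmb4, Psmb7 and Psmd7) and 1, Psme4, rose, beside 16.6% of all genes, 6.11% lower and 10.5% higher. The log2 fold change was below 0 for 44 of the 48, beside 9009 of the 16762 tested genes. The median was -0.16 beside -0.03 over every tested gene. Only Psmb8 (-1.13), Psmb9 (-0.83) and Psma8 (-0.80), each with fewer than 65 fragments a group, lay more than 1.5-fold lower, with adjusted p of 0.243, 0.327 and 0.213. Groups did not overlap for 22 genes that were lower and 1 that was higher, beside 32% of all genes, 15.5% lower and 16.5% higher.

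Of the 9 that fell, 5 were alpha subunits. Psma4 had 107.3, 104.6 and 110.9 CPM with rSRGN against 134, 132 and 133 in hypoxia, a log2 fold change of -0.31 ± 0.07 (edgeR, adjusted p = 0.00394). Psmd7 had 116, 119.9 and 127 CPM with rSRGN, and its log2 fold change was -0.37 ± 0.09 (adjusted p = 0.00741), or -0.22 without hypoxia replicate 2. The other 7 lay between -0.22 and -0.30. Without hypoxia replicate 2, Psma1, Psma2, Psmb2, Psmb4 and Psmb7 did not pass (adjusted p from 0.0507 to 0.185, with Psma1 at -0.13 in place of -0.30) and 6 genes fell in all. Of the partners, Pomp fell by 0.32 and Sem1 by 0.24 (edgeR, adjusted p = 0.00385 and 0.0189). Ube3c rose by 0.47 and Ecpas by 0.31 (adjusted p = 0.000375 and 0.0069). Sem1 failed without hypoxia replicate 3 or any hypoxia + rSRGN library (0.0534 to 0.107). In the NRF1 list, 3 of 9 genes rose by adjusted p, beside 10.5% of all genes, among them Sel1l by 0.51 (adjusted p = 0.000114). With the length trend removed, Ecpas was at 0.16 and Sem1 at -0.16, and neither passed (adjusted p = 0.153 and 0.143).

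The 9 falls were sensitive to the libraries and to gene length. Psma4, Psmd7 and the rise of Psme4 passed with each library left out, and each of the other 7 failed without 1 or more. The number that fell was 2 without hypoxia + rSRGN replicate 1, 2 without replicate 2, 4 without replicate 3 and 5 without control replicate 2. Longer genes were higher with rSRGN across the table (rho 0.32 over 16762 genes, 0.42 over the 48), and with that trend removed the median was -0.05 and 0 genes fell by edgeR, while Psme4 still rose. For other genes called in hypoxia, the differences between hypoxia + rSRGN and hypoxia were -0.16 for Psmd8 (95% interval -0.29 to -0.02), -0.14 for Psmd4 (-0.29 to 0.01), 0.10 for Psmg3 (-0.26 to 0.46), -0.09 for Psme1 (-0.26 to 0.07) and -0.83 for Psmb9 (-1.96 to 0.30). Without hypoxia replicate 2, Psmg3 was at -0.048, Psmb9 at -1.25 and Psmb10 at -0.021.

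Hypoxia + rSRGN against control shares its libraries with both comparisons above, and its values are given beside them. Of 48 tested genes, 2 were called higher (Psmd8 and Psmg3) and 4 lower (Psme4, Psmb10, Psme1 and Psmb8), where 48.8% of all genes were called, 24.1% higher and 24.7% lower. By adjusted p alone, 11 rose and 16 fell, beside 68.6% of all genes, 34.4% higher and 34.3% lower. The median log2 fold change was 0.01, as over all genes. Psme4 was at -1.05 against control, Psme1 at -1.02 and Psmd8 at 0.85. The catalytic genes Psmb5, Psmb6 and Psmb7 each fell, by 0.34, 0.41 and 0.32 (edgeR, adjusted p = 0.000433, 1.94e-05 and 0.000509), and Psmb1, Psmb2, Psma3, Psma4 and Psma7 rose by 0.17 to 0.30.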

How the data were processed

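Per the labels, RNA for 9 libraries was poly(A)-enriched and sequenced by Illumina. The deposited values are raw fragment counts, made by the authors with featureCounts 2.0.1 on exons of GENCODE release M25 (mm10, GRCm38), paired-end and with no strand option; HISAT2 is named in the submitters' processing notes. Genes overlapping on opposite strands and near-identical copies are therefore uncertain. Samples were grouped by their treatment label. After filterByExpr and TMM scaling, all 9 libraries entered a single fit in edgeR 4.0.16 (limma 3.58.1, R 4.3.3), with two-sided quasi-likelihood tests and Benjamini-Hochberg adjustment over the 16762 genes. On simulated counts with 200 genes changed 2-fold, it called 177 of them for hypoxia against control and 169 for hypoxia + rSRGN against hypoxia. The simulation does not cover changes under 2-fold, nor scaling where 51.6% of genes were called, as in hypoxia against control. Fold changes carry standard errors from the fit.

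Member classes, partner, pathway and marker lists and motifs were chosen with earlier results of these data known, so no list's pattern is independent support. Values in every library are given for called members, catalytic subunits, activators, the inhibitor and assembly chaperones, and partner genes are named for the largest changes in each direction; further members were added after their values were seen, and some genes of these lists are not reported here. Endothelial markers were called lower for 6 and higher for 1 of 8 in hypoxia, though their sum was 241 to 265 CPM in control and 445 to 519 in hypoxia. Smooth muscle markers were called lower for 1 and higher for 1 of 4, with sums of 1291 to 1549 and 1869 to 2194 CPM. Per-length levels use the length of all annotated exons, often longer than the mRNA. Words of 50 bases were taken from GENCODE M21 transcripts, and promoters from RefSeq (GRCm38.p6). Pearson correlations of the deviations of same-numbered libraries were -0.05 to 0.05, so the numbers do not pair them. The alternatives were RLE factors, library size alone, other count filters, DESeq2 1.42.0, other call rules, only the groups compared, a replicate block, each library left out, and, chosen after seeing the data, removal of the exon length trend and every alternative for counts by adjusted p alone.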

Additional observations from a re-analysis of the deposited data

How the results depend on the processing

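Psmd8, Psme4, Psme1 and Psmb10 kept their calls in hypoxia against control under each alternative. The 4 members called higher became 7 with library size alone, which moved the median of all genes to 0.12, 2 with the exon length trend removed (Psmd4 and Psmg3 lost) and 3 to 5 with a library left out. Without a fold change limit the counts were 21 higher and 10 lower in hypoxia against control, 1 and 9 in hypoxia + rSRGN against hypoxia, and 11 and 16 in hypoxia + rSRGN against control. The median in hypoxia against control was 0.27 with library size alone, 0.15 with a filter of at least 1 count, -0.032 with the length trend removed and 0.13 to 0.25 with a library left out, and that in hypoxia + rSRGN against hypoxia was -0.050 with the length trend removed. By adjusted p alone, 13 rose and 15 fell with the length trend removed and 5 fell with library size alone in hypoxia against control. In hypoxia + rSRGN against hypoxia, 4 fell with RLE factors, 14 with library size alone, 5 with only the groups compared, 0 with the length trend removed and 2 to 12 with a library left out. With the replicate block, 6 of the 7 calls in hypoxia against control remained and Psmb9 was lost (log2 fold change 1.33, adjusted p = 0.0533). The block changed no other call at 1.5-fold. By adjusted p alone, it also lost Psmc3 in hypoxia against control (0.0648) and Psmb7 in hypoxia + rSRGN against hypoxia (0.0636). In hypoxia + rSRGN against control, 10 then rose in place of 11. The same-numbered libraries share only a number.

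Signs turned for genes that were not called. In hypoxia against control with the length trend removed these were Psma5 (-0.034), Psma6 (-0.031), Psmg1 (-0.013), Psme3 (-0.065), Psmf1 (0.025), Psmg2 (-0.16), Psmg4 (-0.18), Psmd10 (-0.11), Psme2b (-0.23), Psmb3 (-0.27) and Psmd6 (-0.20), the last pair passing by adjusted p, and without hypoxia replicate 2 it was Adrm1 (-0.047). Psmb3 and Psmd6, both at 0.00, were at -0.022 and -0.022 with RLE factors, -0.051 and -0.052 with at least 1 count, -0.0018 and -0.0029 with at least 10 counts, -0.022 and -0.022 with DESeq2, -0.0073 and -0.0091 with only the groups compared, and -0.12 to 0.13 and -0.039 to 0.059 with a library left out. Psmb3 was at -0.0047 with the replicate block. Psmc1 was at 0.059 with library size alone and -0.15 to 0.075 with a library left out, and Psmd3 at -0.0087 with at least 1 count and -0.018 to 0.094 with a library left out. In hypoxia + rSRGN against hypoxia, Psmg3 was at -0.048 without hypoxia replicate 2 and up to 0.19 without another library, and Psmb10 and Psme1 were at 0.051 and 0.067 with the length trend removed. The cause of these shifts was not tested. At fewer than 65 fragments a group, Psma8, Psmb8, Psmb9 and Psmb11 are limited by depth.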
